A study of Mus musculus with 6 samples.

Results

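The genes described here are the creatine kinases, the enzymes that make creatine, adenylate kinase and the enzymes of the purine nucleotide cycle in mouse hind leg muscle. They were taken from the deposited table by symbol (Ckm, Ckb, Ckmt2, Gatm, Gamt, Ak1, Ampd1, Ampd3, Adssl1 and Adsl), and all 10 were among its 16759 genes. RNA was sequenced from hind leg muscles of 6 male C57BL/6J mice that were 8 weeks old when the study began, with 1 library per mouse. The 3 exercise (EX) mice ran on an electric treadmill in daily sessions of 60 min, 5 days per week over 6 weeks, covered 22 km each and were killed 24 h after their final run. The 3 control (Con) mice had no treadmill training, and the time of their killing is not given in the sources used here. The comparison of EX with Con asks how moderate-intensity training changed transcript levels in this tissue. The sources do not say which hind leg muscles entered each library, so a library can mix fibre types in its own proportions, and the mice were perfused with buffer before dissection.

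A muscle fibre holds little ATP and rebuilds it from several stores when work begins. Creatine kinase moves a phosphate between creatine phosphate and ADP, in the cytosol beside the contractile proteins and in the mitochondrial intermembrane space. Adenylate kinase turns a pair of ADP molecules into ATP and AMP, and the purine nucleotide cycle then removes AMP by deamination to IMP and rebuilds it with an amino group from aspartate, releasing ammonia and fumarate.

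Total counts per library ranged from 13845362 to 16240431. Levels of a gene between groups are given as CPM, the counts scaled to a common library size after trimmed-mean (TMM) normalization, and levels of different genes are compared as TPM, which divide by gene length before scaling. A gene was tested if its FPKM, a count scaled by gene length and library depth, averaged across libraries, reached 1, which kept 10883 genes and all 10 described here. EX was compared with Con by the quasi-likelihood test of edgeR, p-values were adjusted by the Benjamini-Hochberg method over those 10883 genes, and the threshold was an adjusted p of 0.05. Con replicate 1 lay farther from the other Con libraries than they did from each other, with a chi-square per degree of freedom of 3.43 and 4.18 against 1.78. The values in the other Con libraries alone are therefore given beside the results that they alter. The labels name no batch. Counts of 6 skeletal muscle markers summed to 69466 to 72923 CPM in Con and to 76012 to 79205 CPM in EX. Of the 6, 1 was higher in EX (Acta1, at 35075 and 40944 CPM) and 2 were lower (Ryr1 and Mb, with log2 fold changes of -0.17 and -0.14), and none was at 0.

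The promoters of a creatine-synthesis gene and of the muscle and brain creatine kinases are shown because these genes lie at very different levels in the same tissue. The letters are the 250 bases before the transcription start, 5′ to 3′ on the strand of the gene, from RefSeq on GRCm38.p6. Capitals mark every match on either strand to the motifs searched. The motifs were the E-box CANNTG, with the form CAGCTG also counted by itself, the TATA box TATAAA, the CCAAT box, the GC box GGGCGG and the MEF2 motif. They are Gamt at chr10:80261013-80261262 on the minus strand, Ckm at chr7:19410844-19411093 on the plus strand and Ckb at chr12:111672339-111672588 on the minus strand.
Gamt: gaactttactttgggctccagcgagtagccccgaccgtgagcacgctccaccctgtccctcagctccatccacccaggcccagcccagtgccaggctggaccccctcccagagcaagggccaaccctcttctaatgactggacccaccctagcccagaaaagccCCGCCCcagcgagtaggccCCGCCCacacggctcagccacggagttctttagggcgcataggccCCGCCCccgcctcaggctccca
Ckm: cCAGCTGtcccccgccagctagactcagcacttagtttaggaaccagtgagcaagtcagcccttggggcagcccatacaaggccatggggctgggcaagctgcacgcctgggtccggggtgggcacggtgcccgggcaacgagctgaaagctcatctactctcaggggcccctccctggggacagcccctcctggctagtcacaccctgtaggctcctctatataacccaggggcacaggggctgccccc
Ckb: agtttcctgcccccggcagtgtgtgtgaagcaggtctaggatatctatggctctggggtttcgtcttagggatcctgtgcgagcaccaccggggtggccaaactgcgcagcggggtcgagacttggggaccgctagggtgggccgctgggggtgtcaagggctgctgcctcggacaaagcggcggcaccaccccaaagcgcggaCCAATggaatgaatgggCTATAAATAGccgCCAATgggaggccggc
The Gamt window held 3 GC boxes, with first letters 86, 67 and 22 bases before the start, and none of the other motifs. The Ckm window held a single E-box of the form CAGCTG, 249 bases before the start, a place close to its outer edge. The Ckb window held a MEF2 match 29 bases before the start that overlaps a TATAAA match, and a CCAAT match on either side of it, 46 and 16 bases before the start. Of 32851 RefSeq promoter windows of this length, 66.2% held CANNTG, 13.0% held CAGCTG, 12.4% held TATAAA, 33.8% held CCAAT, 32.7% held GGGCGG and 2.92% held the MEF2 motif. These matches describe the letters alone. Promoter entries were found for 9 of the 10 genes, with Ampd1 not among them.

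The transcript levels of the 10 genes spanned several orders of magnitude. In Con, Ckm, the cytosolic muscle creatine kinase, had a mean of 35848 TPM and was the most abundant of the 10. By TPM it ranked 3 among all genes in each Con library and 4, 3 and 5 in EX replicates 1 to 3. Ckmt2, the mitochondrial creatine kinase of striated muscle, followed with 2111 TPM in Con, then Ak1 with 1169, Adssl1 with 1144 and Ampd1 with 986. Adsl had 67.7 TPM, Gamt 20.4, Ckb 8.08, Ampd3 6.69 and Gatm 5.36. Neighbours in this order did not overlap between libraries except Ak1 and Adssl1. In EX, Ampd1 at 1037 TPM stood before Adssl1 at 1026.5 TPM, but their libraries overlapped, and no other place in the order differed from Con. The 10 genes together took 3.11% to 3.55% of the counts of a library, and Ckm alone took 2.51% to 2.97%.

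**Figure D1:**
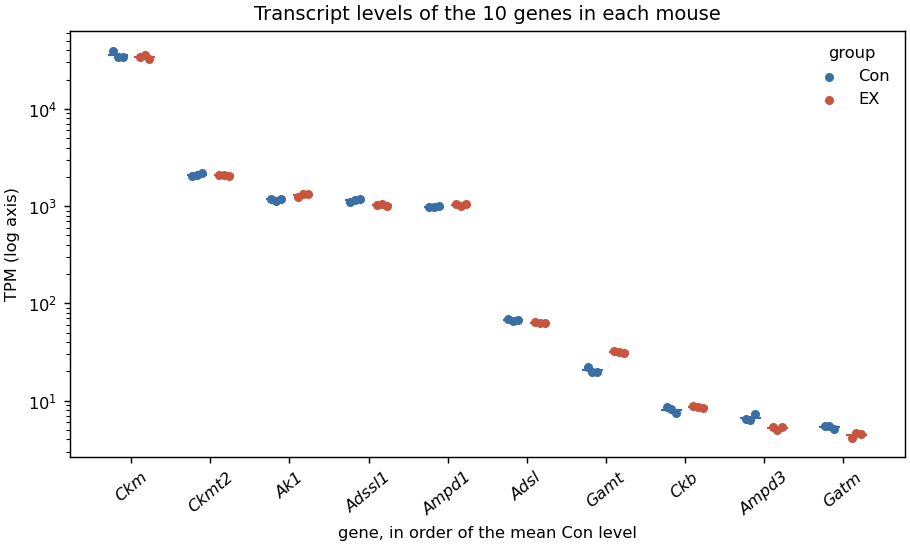
Transcript level of each of the 10 genes in TPM on a log axis, with genes in order of their mean Con level and 1 point per mouse (3 Con, 3 EX). Ckm, at a mean of 35848 TPM in Con, lies far above the other genes, and Gatm is lowest at 5.36 TPM.

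Of the 10 genes, 3 passed the threshold upward in EX (Gamt, Ak1 and Ampd1) and 1 downward (Ampd3). Over all genes tested, 17.9% passed in either direction, 9.11% upward and 8.8% downward. The changes were small except for Gamt, whose level in EX was 1.67 times that in Con. The median log2 fold change of the 10 genes was 0.05, beside -0.00 over all genes tested. The CPM of the groups did not overlap for 6 of the 10 genes, against 33.7% of all genes tested. Without Con replicate 1, 4 genes passed upward and 2 downward, against 17.1% of all genes in either direction, and the 2 that were added are Ckm and Adssl1. DESeq2, which called 11.3% of all genes, called 3 of the 10 genes upward and 0 downward. Limma on log2(FPKM + 0.1) called 13.3% of all genes, with 2 of the 10 upward and 1 downward, and on log2(TPM + 0.1) it called 18.6%, with 2 upward and 2 downward.

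The creatine kinases themselves did not pass the threshold with all 6 libraries. Ckm (gene 12715) had 29530.5, 25308 and 24614 CPM in the 3 Con libraries and 26491, 28943 and 25601 CPM in the 3 EX libraries. The groups overlapped, and the highest of the 6 values belonged to Con replicate 1. The means were 26484 ± 2661 (SD, n = 3) and 27012 ± 1730.5 CPM (log2 fold change 0.03, standard error 0.05, 95% interval -0.07 to 0.13, edgeR adjusted p = 0.733). Without Con replicate 1 the log2 fold change of Ckm was 0.11, with an edgeR adjusted p of 0.0101, so the call on Ckm rests on that library. Left-out libraries also turned its sign, to -0.01 without Con replicate 2 and to -0.02 without either Con replicate 3 or EX replicate 2, as did limma on FPKM (-0.03) and TPM (-0.06).

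Ckmt2 (gene 76722) had 1630.5, 1658 and 1692 CPM in Con and 1739, 1775 and 1712 CPM in EX. All EX values lay above all Con values, and the means were 1660.1 ± 30.8 and 1742 ± 31.6 CPM. The log2 fold change was 0.07 (standard error 0.03, 95% interval 0.00 to 0.14) and did not pass the threshold (edgeR adjusted p = 0.142). On the TPM scale the groups overlapped, and limma on log2(TPM + 0.1) gave -0.02. Ckb (gene 12709), the brain-type cytosolic creatine kinase, had 6.74, 6.43 and 5.77 CPM in Con and 7.25, 7.32 and 7.05 CPM in EX, on 92 to 115 counts per library. The EX values lay above the Con values in CPM but not in TPM. The log2 fold change of Ckb was 0.19 with a 95% interval of -0.05 to 0.44 (edgeR adjusted p = 0.285), an interval that spans 0.965 to 1.36 times the Con level.

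Ckmt1, the mitochondrial creatine kinase of other tissues, had no count in 5 libraries and 1 count in EX replicate 3. A count of 0 allows up to 3 counts, or 0.188 to 0.215 CPM, which covers counting error only. The makeup of the family by TPM was close in the 2 groups. Ckm made up 94.4% ± 0.592 (SD, n = 3) of creatine kinase transcripts in Con and 94.3% ± 0.245 in EX. The share of Ckmt2 was 5.59% ± 0.591 in Con and 5.72% ± 0.244 in EX, and the groups overlapped (two-sided exact permutation test, p = 0.8). The difference of 0.125 percentage points became -0.208 without Con replicate 1. The share of Ckb was 0.0213% ± 0.00113 in Con and 0.0238% ± 0.00105 in EX, and the EX values lay above the Con values by a margin in the fifth decimal only (exact permutation test, p = 0.1, which 3 mice against 3 cannot go below).

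**Figure D2:**
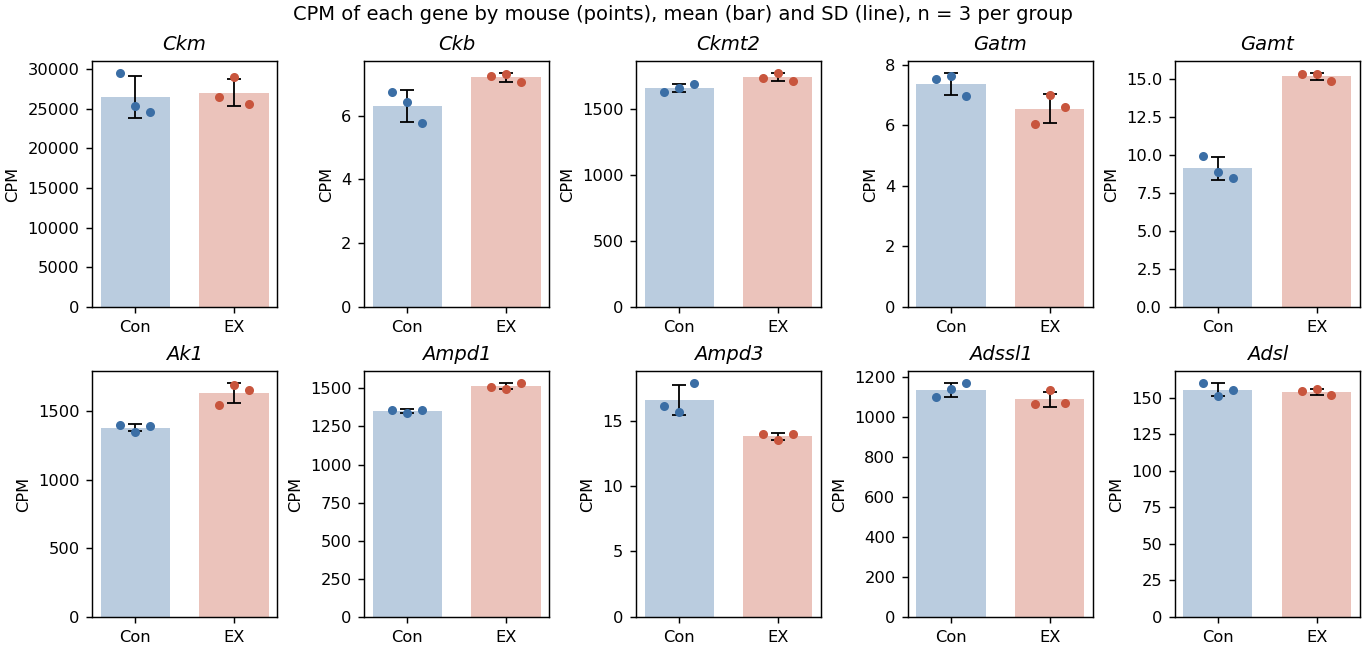
CPM of each gene by mouse on axes that start at 0, with the mean as a bar and the SD as a line (n = 3 per group). The EX points lie above the Con points for Gamt, Ak1, Ampd1, Ckmt2 and Ckb, below them for Ampd3, and overlap them for Ckm, Gatm, Adssl1 and Adsl.

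The enzymes of creatine synthesis differed from each other. Gamt, which methylates guanidinoacetate to creatine, rose, and Gatm, which makes guanidinoacetate from arginine and glycine in the step before, did not pass the test. Gamt (gene 14431), whose promoter letters are given above, had 9.97, 8.91 and 8.53 CPM in Con and 15.3, 15.3 and 14.9 CPM in EX, on 136 to 140 and 235 to 243 counts. Every EX library was higher than every Con library. The means were 9.14 ± 0.748 and 15.2 ± 0.239 CPM (log2 fold change 0.74, standard error 0.09, edgeR adjusted p = 8.9e-07). It passed the threshold under all 15 alternatives run, with log2 fold changes of 0.63 to 0.80.

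Gatm (gene 67092) had 7.53, 7.63 and 6.96 CPM in Con and 6.06, 7.004 and 6.60 CPM in EX. The groups overlapped in CPM, where EX replicate 2 lay above Con replicate 3, and did not overlap in TPM. The log2 fold change was -0.17 with a 95% interval of -0.41 to 0.07 (edgeR adjusted p = 0.357). With limma on log2(TPM + 0.1) it was -0.26, beside a median of -0.09 over all genes tested. The ratio of Gamt to Gatm by TPM was 4.04, 3.57 and 3.84 in Con and 7.77, 6.72 and 6.88 in EX. Its mean was 3.82 ± 0.239 in Con and 7.12 ± 0.564 in EX, with no overlap (exact permutation test, p = 0.1, the smallest possible). Slc6a8, the creatine transporter, by which muscle takes up creatine made in other organs, had 169 ± 2.52 CPM in Con and 178 ± 4.999 in EX (log2 fold change 0.08, edgeR adjusted p = 0.183).

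Ak1 (gene 11636), the cytosolic adenylate kinase of muscle, rose by 18.2%. Its values were 1398, 1347 and 1392 CPM in Con and 1547, 1689 and 1655 CPM in EX, with means of 1379 ± 27.7 and 1630.4 ± 74.5 CPM. Each EX library lay above each Con library (log2 fold change 0.24, standard error 0.04, edgeR adjusted p = 1.1e-05). The threshold was passed under all 15 alternatives, with log2 fold changes of 0.15 to 0.28. The matrix enzymes Ak3 and Ak4 had log2 fold changes of -0.03 (edgeR adjusted p = 0.745) and 0.24 (0.0653). Ak1 held 88.0% ± 0.581 of adenylate kinase transcripts by TPM in Con and 89.1% ± 0.617 in EX, without overlap (exact permutation test, p = 0.1).

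In the purine nucleotide cycle, the muscle AMP deaminase Ampd1 rose and Ampd3, the form first known from red blood cells, fell. Both convert AMP to IMP. Ampd1 (gene 229665) had 1360.0, 1339 and 1356 CPM in Con and 1507, 1497 and 1536 CPM in EX. The spread within each group was small beside the gap between them, with means of 1352 ± 11.1 and 1513 ± 20.3 CPM (log2 fold change 0.16, standard error 0.03, edgeR adjusted p = 4.5e-04). The call held in 12 of 15 alternatives and was lost in limma on FPKM and TPM, where the log2 fold change was 0.07 to 0.11.

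Ampd3 (gene 11717) had 16.1, 15.6 and 17.9 CPM in Con and 13.9, 13.5 and 14.0 CPM in EX, on 212 to 285 counts per library. The EX values lay below the Con values, whose highest was Con replicate 3. The means were 16.6 ± 1.17 and 13.8 ± 0.264 CPM (log2 fold change -0.26, standard error 0.08, edgeR adjusted p = 0.0242). The call was lost without Con replicate 3 (log2 fold change -0.20, edgeR adjusted p = 0.139), without EX replicate 1 (0.0524), EX replicate 2 (0.0807) or EX replicate 3 (0.0589), and with DESeq2 (adjusted p = 0.134). The log2 fold change stayed near its value with all libraries in the last 4 of these fits, at -0.27, -0.25, -0.27 and -0.26. Exons of Ampd3 overlap those of Rnf141 on the opposite strand in the GENCODE annotation of GRCm38, and the sources used here do not give the strand setting of the counting. Rnf141 had 32.3 ± 1.14 CPM in Con and 30.2 ± 1.98 in EX (log2 fold change -0.09, edgeR adjusted p = 0.326), and its part in the Ampd3 value was not tested. The same annotation places antisense genes over exons of Ckm (A930016O22Rik) and Ckmt2 (1700119I11Rik), and Gm47282 and B430319F04Rik over exons of Ampd3, and these were not analysed here. Of 5 erythroid markers, 1 passed upward and none downward, and they summed to 242 to 266 CPM in Con and to 264 to 291 CPM in EX.

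By TPM, Ampd3 was 0.670% ± 0.0454 (SD, n = 3) of AMP deaminase transcripts in Con and 0.499% ± 0.0104 in EX. The groups did not overlap, and the difference was -0.171 percentage points (two-sided exact permutation test, p = 0.1, the smallest possible). From TMM-scaled counts not divided by length, the difference was -0.302 percentage points. Ampd1 was 98.8% ± 0.0605 of the family in Con and 99.1% ± 0.0373 in EX. Ampd2, the form found in most other tissues, had 11.7 ± 1.17 and 10.9 ± 0.784 CPM, a log2 fold change of -0.10 (edgeR adjusted p = 0.543).

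The enzymes that rebuild AMP from IMP did not pass the threshold. Adssl1 (gene 11565), the muscle adenylosuccinate synthase that joins IMP and aspartate, had 1099.8, 1141 and 1168 CPM in Con and 1063, 1132 and 1068 CPM in EX. The groups overlapped, with means of 1136 ± 34.2 and 1088 ± 38.6 CPM (log2 fold change -0.06, 95% interval -0.13 to 0.01, edgeR adjusted p = 0.234). By TPM the groups did not overlap, and EX was lower. Without Con replicate 1, its log2 fold change was -0.09 and passed the threshold (edgeR adjusted p = 0.0457), and limma on log2(TPM + 0.1) gave -0.16 (adjusted p = 0.0228). The median over all genes tested in that limma fit was -0.09. Adss, its paralog in other tissues, had a log2 fold change of -0.00 (edgeR adjusted p = 0.993).

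Adsl (gene 11564), adenylosuccinate lyase, splits adenylosuccinate into AMP and fumarate and also acts in purine synthesis. It had 160.0, 151 and 155 CPM in Con and 154, 156 and 152 CPM in EX. The groups overlapped, and the 95% interval of the log2 fold change, -0.09 to 0.07, was narrow around -0.01 (edgeR adjusted p = 0.875). Without Con replicate 1 the log2 fold change was 0.01. On the TPM scale every EX value of Adsl lay below every Con value, at 62.2 to 64.0 against 65.8 to 69.3 TPM. Limma on log2(TPM + 0.1) gave -0.10 for Adsl, beside a median of -0.09 over all genes tested. The ratio of Adssl1 to Ampd1 by TPM was 1.12, 1.18 and 1.19 in Con and 0.972, 1.04 and 0.958 in EX. The ratio was lower in every EX library, with means of 1.16 ± 0.0399 and 0.991 ± 0.0454 (exact permutation test, p = 0.1). The ratio of Adsl to Ampd1 was 0.0687 ± 0.00151 in Con and 0.0607 ± 0.00159 in EX, also without overlap (exact permutation test, p = 0.1). Of the other ratios computed, Ckm to Ckmt2 (exact permutation test, p = 0.8), Ckm to Ckb (p = 0.2) and Adssl1 to Adss (p = 0.2) overlapped between the groups. The ratio of Ampd1 to Ampd3 did not (exact permutation test, p = 0.1).

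**Figure D3:**
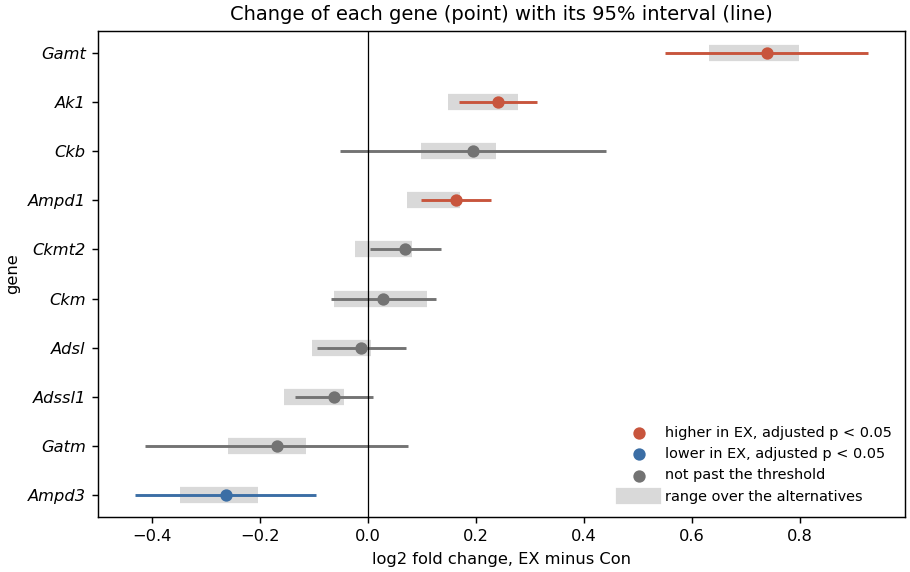
log2 fold change of each gene, EX minus Con, as a point with its 95% interval as a line and the range over all alternatives as a grey band. Gamt is the farthest from 0 at 0.74, and the bands of Ckm, Ckmt2 and Adsl lie on both sides of 0.

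Markers of fibre type and of other cells differed between the groups. All 7 slow fibre markers were higher in EX, and they summed to 99.4 to 105 CPM in Con and 351 to 377 CPM in EX. Myl3 and Atp2a2 made up most of the Con sum, with means of 42.7 and 54.2 CPM in Con and 56.5 and 119 CPM in EX. Myh7, Tnni1, Tnnc1, Tnnt1 and Myl2 had means of 0.402 to 2.60 CPM in Con and 11.6 to 102 CPM in EX. Of 7 fast fibre markers, 3 were higher and 2 lower, with sums of 123527 to 124277 CPM in Con and 130598 to 134891 CPM in EX. All 3 markers of regenerating fibres that passed the filter, of 6 listed, were higher, with sums over the list of 511 to 571 and 1594 to 1691 CPM. Actc1 made up most of these sums, with means of 511 CPM in Con and 1603 CPM in EX. All 4 fat cell markers tested, of 6, were higher (14.1 to 15.3 and 34.8 to 39.3 CPM), as were 6 of 7 macrophage markers tested, of 8 (40.5 to 44.8 and 74.8 to 82.0 CPM). Of 5 Schwann cell markers, 4 were lower (109 to 120 and 82.9 to 86.9 CPM), and of 5 endothelial markers, 1 was higher and 3 lower (544 to 555 and 471 to 494 CPM). Of 4 fibroblast markers (661 to 694 and 889 to 900 CPM), 2 were higher, the collagen genes Col1a1 and Col3a1. Pdgfra and Dcn did not pass, with log2 fold changes of -0.14 and -0.10. Of 5 smooth muscle markers, 1 was higher and 1 lower (269 to 285 and 260 to 273 CPM). Of 3 brown fat markers, 2 were in the table and none passed the filter (0.564 to 1.004 and 0.191 to 0.631 CPM). No marker in the table was at 0 in all libraries. Their part in the changes of Gamt, Ak1, Ampd1 and Ampd3 was not tested, and in whole muscle fewer cells of a type and less RNA per cell cannot be told apart.

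Around these enzymes, 66 further genes of creatine and adenine nucleotide metabolism were listed, of which 65 were in the table and 58 passed the filter. Of the 58, 11 were higher and 3 lower in EX, 24.1% in either direction beside 17.9% of all genes, with a median log2 fold change of 0.05. With limma on log2(FPKM + 0.1), 3 of them were higher and 5 lower, and 28.4% of the calls over all genes were upward against 50.8% with edgeR. On log2(TPM + 0.1), 3 were higher and 6 lower, with 16.8% of all calls upward. Slc25a25, a mitochondrial ATP-Mg/phosphate carrier that exchanges adenine nucleotides with the matrix, rose most, from 63.0 ± 1.66 to 176 ± 4.41 CPM (log2 fold change 1.48, edgeR adjusted p = 6.9e-20). The adenine nucleotide translocase Slc25a5 rose from 42.7 ± 1.49 to 49.8 ± 2.21 CPM, and these were the only genes of the 10 carriers listed to pass. Of 8 listed genes of AMP-activated protein kinase, the sensor of AMP, and its upstream kinase (Stk11), the subunits Prkab2 (462 to 534 CPM) and Prkag3 (160.4 to 202 CPM) rose and none fell. Of 7 enzymes that handle aspartate or fumarate beside the cycle, Got2 (524 to 587 CPM) and Mdh1 (647 to 718 CPM) rose, beside the 17.9% of all genes that passed. Both belong to the malate-aspartate shuttle, as do Got1 and Mdh2, which did not pass. Got1 had a log2 fold change of 0.06 (edgeR adjusted p = 0.254) and Mdh2 one of 0.04 (0.517).

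Of the tested genes that make purines, 2 of 9 passed the threshold upward and 2 downward. Of those that salvage or break down purines, 1 of 11 passed upward and 1 downward. Over all genes, 17.9% passed in either direction. Of 9 tested genes of de novo synthesis, Prps1 (log2 fold change 0.17) and Paics (0.15) rose, and Pfas (-0.19) and Impdh1 (-0.31) fell. Prps1 makes the activated ribose, Pfas and Paics act along the path to IMP, and Impdh1 leads IMP toward GMP. Of 11 tested genes of salvage and breakdown, Hprt, which returns hypoxanthine to IMP, rose by 0.31 on the log2 scale, and Xdh, which oxidizes hypoxanthine to urate, fell by 0.26. Of 6 other phosphotransfer kinases, the nucleoside diphosphate kinase Nme1 rose by 0.30. The adjusted p-values of these 7 genes from edgeR lay between 2.5e-04 (Xdh) and 0.0277 (Prps1). Passing and not overlapping between the groups in CPM were conditions for naming these genes, so neither is a separate result. Of all genes tested, 33.7% did not overlap in CPM. By TPM the groups overlapped for Prps1, Paics, Hprt and Nme1. Slc25a25, Prkag3 and Xdh passed under all 15 alternatives, Impdh1 under 14 and Pfas under 13. Slc25a5, Prkab2, Got2 and Mdh1 passed under 12, Paics and Hprt under 10, Nme1 under 9 and Prps1 under 7. Every one of these genes kept its direction under all of them, but the smallest log2 fold changes were 0.06 for Mdh1, 0.07 for Got2, 0.07 for Paics and 0.08 for Prps1.

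**Figure D4:**
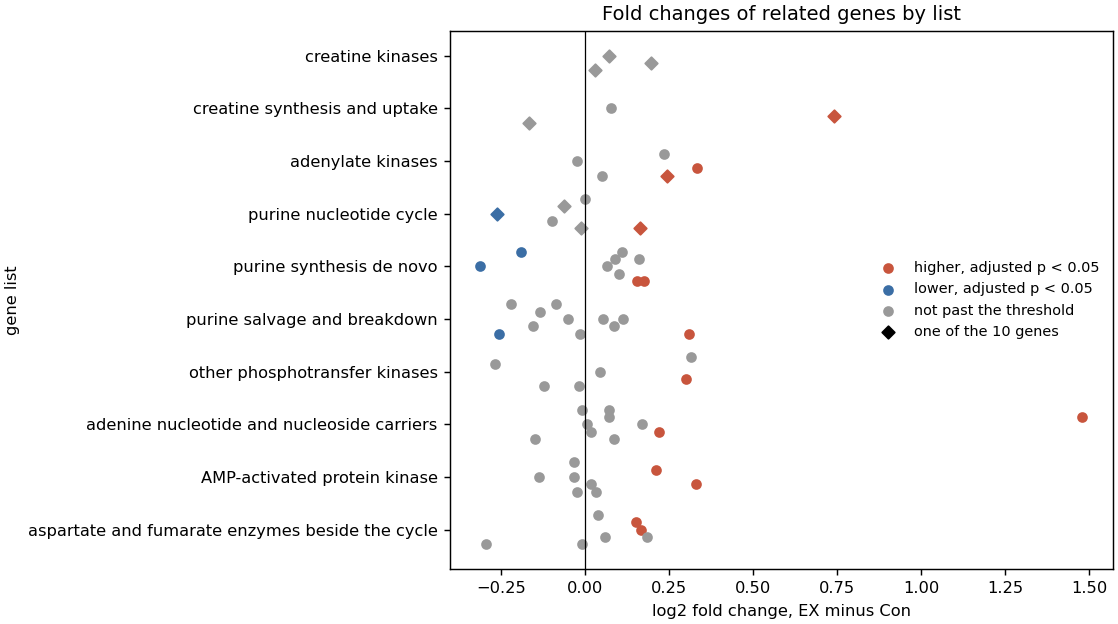
log2 fold change, EX minus Con, of the 10 genes and the 58 related genes tested, 1 point per gene in the row of its list. Diamonds are the 10 genes and circles the others, red is past the threshold upward, blue downward and grey not past it. Most points lie near 0, and Slc25a25 at 1.48 and Gamt at 0.74 lie farthest to the right.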

How the data were processed

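Hind leg muscle RNA of 3 Con and 3 EX mice was sequenced on the DNBseq platform (paired ends of 150 bp) without pooling of replicates. The authors filtered the reads and, per their methods, aligned them with HISAT to GRCm39, while the submitters' processing notes list GRCm38.p6, cutadapt, featureCounts and MultiQC. The authors deposited estimated counts, which are not normalized, and FPKM and TPM values, which they normalized by gene length and depth. The strand setting is not given in the sources used here. The 6 columns of group means were not used.

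Estimated counts were rounded to whole numbers and scaled by TMM, and genes whose FPKM averaged 1 or more were tested in R 4.3.3 by glmQLFTest of edgeR 4.0.16, with Benjamini-Hochberg adjustment and a threshold of 0.05. Before rounding, 4.18% to 4.44% of a library's values had decimals, and none of the 10 genes' did. Shares and ratios were computed per library from TPM and compared by two-sided exact permutation tests over the samples. Alternatives were median-ratio scaling, totals without the 20 most abundant genes, DESeq2 1.42.0, no filter, a filter at 5 FPKM, limma 3.58.1 on log2(FPKM + 0.1), log2(FPKM + 1) and log2(TPM + 0.1), a replicate block, and each library left out. Fold changes from limma are on the log2(value + pseudocount) scale and are therefore too small for low genes. The tests were checked on simulated counts.

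The genes, the lists and the tests were chosen with earlier results of these data known. The genes named were the 10 genes, related genes past the threshold without overlap between groups, fixed paralogs and the creatine transporter Slc6a8 whatever their values, and the 5 genes most like the gene with the largest change. The genes that overlap exons of the 10 genes (Rnf141 among them), Stk11, Got1, Mdh2 and the markers given by name were named outside this rule, after the data were seen. A related gene that is withheld for evaluation is counted in its list but not reported here.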

Additional observations from a re-analysis of the deposited data

How the results depend on the processing

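The counts of genes past the threshold depended on the test and the scale. Over all genes, 1949 passed with edgeR and 1228 with DESeq2, and 1344 to 1857 passed with a library left out. Of edgeR's calls 50.8% were upward (991 upward, 958 downward), against 38% with totals without the 20 most abundant genes (772 and 1259), 28.4% with limma on log2(FPKM + 0.1) (411 and 1037), 28.5% on log2(FPKM + 1) (411 and 1032) and 16.8% on log2(TPM + 0.1) (340 and 1684). The median of all genes was -0.06 on FPKM and -0.09 on TPM. Of the 10 genes, the number lower in EX was 1 with edgeR, 0 with DESeq2, 0 with a filter at 5 FPKM (where Ampd3 and Gatm were not tested), 2 with limma on TPM, and 0 to 2 with a library left out. Related genes higher in EX numbered 11 with edgeR and 3 with each limma fit. Those lower numbered 3 with edgeR, 5 with either FPKM fit, 6 on TPM, and 1 to 3 with a library left out, the lowest without EX replicate 3.

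The log2 fold change of Ckm turned to -0.0274 with either FPKM fit and -0.0628 on TPM, and ranged from -0.0241 to 0.11 with a library left out. That of Ckmt2 turned to -0.0243 on TPM, and that of Adsl ranged from -0.0353 to 0.0054 with a library left out. The Ckmt2 share difference ranged from -0.208 to 0.358 percentage points with a library left out. The Ampd3 share difference was -0.302 from counts not divided by length, by which long and short transcripts weigh differently. The cause of the other changes was not tested. For each of the 10 genes, the log2 fold change on log2(FPKM + 0.1) was below that from counts. The difference lay between -0.073 (Gamt) and -0.048 (Ampd3), beside the median of -0.06 over all genes on FPKM. Of 148 values of the 10 genes' fold changes under alternatives, 129 kept their direction and side of the threshold.

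Replicate numbers do not pair the samples, since the correlations of same-numbered deviations were -0.08, -0.05 and -0.03. With the replicate block, 1782 genes passed, 3 of the 10 genes upward and 1 downward. Low counts limit Ckb, Gatm, Gamt and Ampd3, with 92 to 285 counts per library.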

Other observations

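The genes whose log2 CPM across the 6 libraries was most like that of Gamt were Cystm1, Tnnt1, Aimp2, Mstn and Htra1, with Pearson's r of 0.999, 0.998, 0.997, 0.997 and 0.997. The 6 points fall into the 2 groups, so these values mostly record that the genes differ between Con and EX, and they are given as a description. The log2 fold changes were 4.26 for Tnnt1, the slow fibre troponin T, 0.51 for Mstn, which encodes myostatin and restrains muscle growth, 0.61 for Htra1, a secreted protease, 0.38 for Aimp2, a scaffold of tRNA synthetases, and 0.14 for Cystm1.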
